A study of Saccharomyces cerevisiae with 12 samples.

Results

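The 41 genes described here encode protein factors of the small-subunit (SSU) processome of budding yeast, Saccharomyces cerevisiae. They were taken by systematic name from the 7126 genes of the deposited count table by a rule that uses no measured value, although the set was proposed with earlier results of these data known, and all 41 passed the filter on low counts that left 6068 genes for testing. Expression was measured by RNA-seq of ribosome-depleted total RNA in 6 groups of 2 libraries. All strains were of the BY background, grown in synthetic minimal medium with histidine, leucine, uracil, lysine and 2% glucose. One genotype lacked the intron of MMS2, a gene of the ubiquitin pathway used in tolerance of DNA damage, and is written mms2Δi. A second lacked the intron of YSF3, a gene for a subunit of the SF3b splicing complex, and is written ysf3Δi. The third was the wild type with both introns in place. Each genotype was represented by 2 strains, and each strain was sampled after 48 h of growth (stationary phase) and in log phase, which gives mms2Δi, ysf3Δi and wild type at 48 h and the same 3 genotypes in log phase. How the strains were derived is not given in the sources used here, so the p-values measure the spread between these strains.

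The processome assembles on the nascent 35S precursor of ribosomal RNA in the nucleolus around the U3 small nucleolar RNA, which pairs with the precursor. Its proteins fold the precursor, and cleavages within it release the precursor of 18S RNA, the RNA of the 40S subunit. The UtpA complex binds the 5′ external transcribed spacer first, the U3 particle and the UtpB complex follow, and helicases, a GTPase and further factors join as the 18S region is made. In yeast, genes for ribosome assembly factors form a regulon that is repressed when growth slows, and many carry 2 promoter elements known as PAC and RRPE.

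The libraries held 4871513 to 16581925 counts, and the 41 genes took 0.496 to 0.677% of the counts at 48 h and 1.13 to 1.96% in log phase. Growth phase labels were checked against HSP12, SPG4 and MLS1, which were high in every 48 h library, and against RPS22A and CLB2, which were high in every log-phase library. MMS2 had 22.1 and 20.8 CPM (counts scaled to a common library size) in mms2Δi and 16.5 and 15.9 CPM in the wild type in log phase. YSF3 had 4.06 and 2.57 CPM in ysf3Δi and 2.25 and 1.62 CPM in the wild type, and neither gene passed the test in its own deletion, so gene counts do not check the intron deletions. Wild-type strain 1 stood apart in mating type. It had 1518 CPM of the alpha-cell gene SAG1 in log phase, against 20.7 to 35.0 CPM in the other log-phase libraries, and 9.59 CPM of the a-cell gene STE2, against 682 to 999.7 CPM. Counts that rest on the wild type were therefore also taken without that strain, and the part of mating type in them was not tested. Those fits keep 1 wild-type library in each phase. A call lost in them cannot tell a difference of that strain from the loss of replication.

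None of the 41 genes has an intron, overlaps another gene or has a near-identical copy in the RefSeq annotation of the R64 assembly, which is sacCer3. They lie on 14 chromosomes and span 552 to 7482 bp, with a median of 1785 bp. The promoters show what the genes share beyond function, so the 300-base windows from 250 bases before to 50 bases after each start codon were read from R64 and searched on both strands for PAC (GCGATGAG) and RRPE, the letters TG followed by AAAAATTT. PAC was found in 25 of the 41 windows (61%), against 236 of the 6001 windows of all protein-coding genes (3.93%). RRPE was found in 18 windows (43.9%), against 235 of all windows (3.92%). Both motifs stood in 11 windows (26.8%), against 64 of all windows (1.07%), and 32 of the 41 windows (78%) held at least 1 of them, against 407 of all windows (6.78%). The shorter core GATGAG, which lies within PAC, was in 38 windows (92.7%, against 20.4% of all), and the core AAAAATTT, which lies within RRPE, was in 33 (80.5%, against 14.1% of all). Of the 25 PAC matches 24 lay before the start codon, 77 to 229 bases from it with a median of 118. The 19 RRPE matches lay 36 to 190 bases before it, with a median of 125. The 5 windows that follow are printed 5′ to 3′ on the coding strand with PAC and RRPE matches in capitals. The first 4 are among the 5 genes with both motifs that had the largest decreases at 48 h in the wild type, and the last is the gene with neither full motif whose decrease was smallest.
UTP4 (chrIV:1116714-1117013, minus strand): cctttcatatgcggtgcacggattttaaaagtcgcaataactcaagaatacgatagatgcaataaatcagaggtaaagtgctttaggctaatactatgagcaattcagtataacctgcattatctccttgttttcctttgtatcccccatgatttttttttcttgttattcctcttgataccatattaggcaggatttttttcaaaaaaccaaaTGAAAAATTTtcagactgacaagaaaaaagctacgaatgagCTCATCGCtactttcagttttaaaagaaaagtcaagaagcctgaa
UTP21 (chrXII:937184-937483, minus strand): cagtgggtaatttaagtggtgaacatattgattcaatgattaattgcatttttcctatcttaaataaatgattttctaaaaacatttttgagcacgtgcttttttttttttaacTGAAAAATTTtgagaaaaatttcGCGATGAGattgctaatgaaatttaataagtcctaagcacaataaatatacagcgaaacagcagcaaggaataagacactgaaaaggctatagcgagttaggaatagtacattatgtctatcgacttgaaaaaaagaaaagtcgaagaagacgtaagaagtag
ROK1 (chrVII:182140-182439, plus strand): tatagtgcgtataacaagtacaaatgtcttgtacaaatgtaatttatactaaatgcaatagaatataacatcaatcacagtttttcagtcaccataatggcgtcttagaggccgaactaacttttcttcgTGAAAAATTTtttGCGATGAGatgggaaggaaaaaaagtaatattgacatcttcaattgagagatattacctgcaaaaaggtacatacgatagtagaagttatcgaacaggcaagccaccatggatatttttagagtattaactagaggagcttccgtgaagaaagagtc
DIP2 (chrXII:399407-399706, plus strand): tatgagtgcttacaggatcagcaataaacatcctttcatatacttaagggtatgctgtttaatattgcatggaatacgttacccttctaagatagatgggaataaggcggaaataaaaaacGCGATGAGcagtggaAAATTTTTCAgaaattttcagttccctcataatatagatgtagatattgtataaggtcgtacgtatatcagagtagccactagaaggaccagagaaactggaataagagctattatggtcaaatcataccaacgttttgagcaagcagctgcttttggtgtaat
ENP2 (chrVII:781517-781816, plus strand): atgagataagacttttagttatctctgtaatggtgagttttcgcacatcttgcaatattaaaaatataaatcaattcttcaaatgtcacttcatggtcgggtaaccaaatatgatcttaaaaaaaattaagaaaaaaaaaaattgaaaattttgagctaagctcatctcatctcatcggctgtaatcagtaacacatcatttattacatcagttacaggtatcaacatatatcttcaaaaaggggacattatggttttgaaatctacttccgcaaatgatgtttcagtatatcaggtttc
In ROK1 the RRPE match begins 120 bases and the PAC match 107 bases before the start codon. UTP21 has them at 136 and 113 bases. DIP2 has PAC at 129 bases and RRPE, on the opposite strand, at 114 bases. The PAC match of UTP4 is on the opposite strand and within the coding sequence, at coding bases 6 to 13. The window of ENP2 holds no full match, and the motif letters say nothing of which factors bind there.

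Levels per gene length, as the FPKM values deposited by the authors, spanned a wide range among genes whose products work in a single particle. RRP5, which encodes an RNA-binding protein with S1 domains needed for both ribosomal subunits, had the highest level in log phase in all 3 genotypes, with 397 ± 30.4 FPKM in mms2Δi, 381 ± 32.7 FPKM in ysf3Δi and 535 ± 28.2 FPKM in the wild type (SD, n = 2 each). MPP10, which encodes the scaffold of the Mpp10 complex, had the highest group mean at 48 h in all 3, with 116 ± 41.8 FPKM in mms2Δi, 141 ± 0.671 FPKM in ysf3Δi and 188 ± 31.5 FPKM in the wild type (SD, n = 2 each). In mms2Δi at 48 h MPP10 had 145 and 86.1 FPKM and RRP5 had 123 and 105 FPKM, so their order was reversed in strain 2. DHR2, a DEAH-box helicase gene, was lowest in all 6 groups, with 10.4 ± 1.495 FPKM at 48 h and 23.6 ± 3.21 FPKM in log phase in the wild type (SD, n = 2 each). The ratio of the highest to the lowest group mean lay between 10.1 in mms2Δi at 48 h and 22.6 in the wild type in log phase. The median of the 41 group means was 54.9 FPKM in mms2Δi, 50.2 in ysf3Δi and 59.6 in the wild type at 48 h. In log phase it was 138 FPKM in mms2Δi, 133 in ysf3Δi and 184 in the wild type.

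The phase comparison asks how expression at 48 h differs from log phase within a genotype. Processome transcripts took a smaller share of the library at 48 h in all 3 genotypes. By edgeR's quasi-likelihood test with Benjamini-Hochberg adjustment over the 6068 genes, the genes called lower at an adjusted p under 0.05 numbered 39 of 41 in mms2Δi, 38 in ysf3Δi and 39 in the wild type, and none rose. The background is high, since 30.7% of all tested genes fell in mms2Δi, 32.9% in ysf3Δi and 34.3% in the wild type, while 33.4% rose in mms2Δi, 33.9% in ysf3Δi and 32.8% in the wild type. The median log2 fold change of the 41 was -1.30 in mms2Δi, -1.18 in ysf3Δi and -1.47 in the wild type. Over all tested genes the median was 0.06 in mms2Δi, 0.03 in ysf3Δi and -0.01 in the wild type. A test against a fold of 2 called 22 genes lower in mms2Δi (12.7% of all genes), 19 in ysf3Δi (14.7%) and 28 in the wild type (15.8%). Both 48 h libraries lay below both log-phase libraries for all 41 genes in mms2Δi (40.2% of all genes), 39 in ysf3Δi (40.8%) and 40 in the wild type (42.5%). Because the same strain was sampled in both phases, the change can also be read strain by strain, and 38 of the 41 genes were lower at 48 h in all 6 strains. The share of all tested genes lower in all 6 strains was not counted, so this count has no background. The medians over the 41 genes of these strain ratios were -1.33 and -1.32 in mms2Δi, -1.19 and -1.37 in ysf3Δi and -1.46 and -1.56 in the wild type on the log2 scale. Without wild-type strain 1 the count of genes that fell in the wild type was 38. The share of all tested genes lower in that fit is not given here. In these bulk libraries fewer growing cells and less RNA per cell cannot be told apart.

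**Figure D1:**
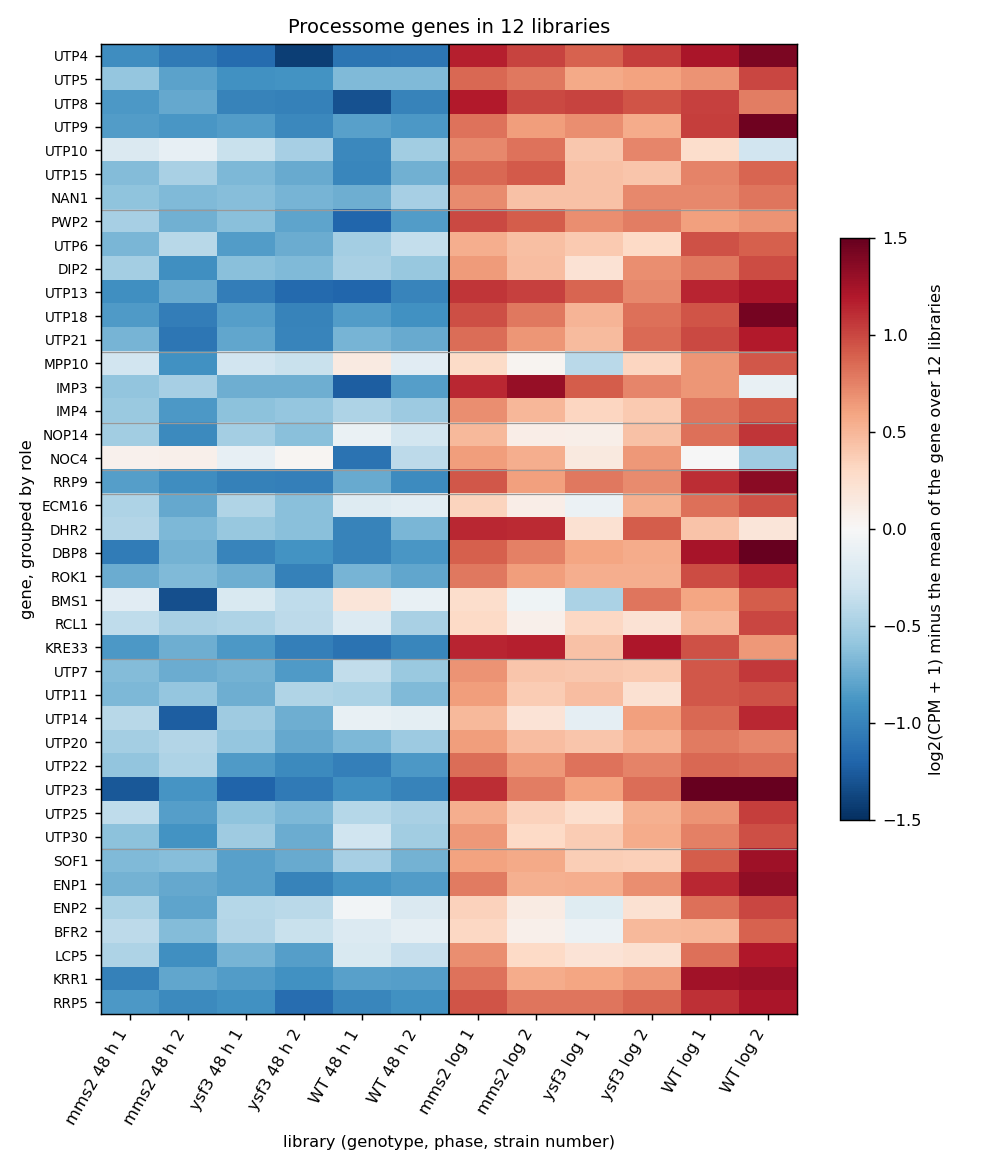
Expression of the 41 genes (rows, grouped by role) in each of the 12 libraries (columns), as log2(CPM + 1) minus the gene's mean over the libraries, where blue is below and red above the mean. The 6 libraries of 48 h on the left are mostly blue and the 6 of log phase mostly red, while NOC4, MPP10 and BMS1 show the weakest division.

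Decreases of the UtpA genes ranged from large in UTP4 to small in UTP10, and all 7 fell in each genotype. UTP4 (YDR324C), a UtpA member with WD40 repeats, had 101 and 92.4 CPM in mms2Δi, 86.9 and 72.5 CPM in ysf3Δi and 90.4 and 90.9 CPM in the wild type at 48 h. Log-phase values of UTP4 were 436 and 395 CPM in mms2Δi, 359 and 400.1 CPM in ysf3Δi and 457 and 519 CPM in the wild type. No 48 h library came near a log-phase library, and the log2 fold change (with its approximate standard error) was -2.10 ± 0.14 in mms2Δi, -2.25 ± 0.14 in ysf3Δi and -2.43 ± 0.14 in the wild type. UTP8 (YGR128C), which encodes another UtpA subunit, had 59.8 and 63.98 CPM in mms2Δi, 54.2 and 53.9 CPM in ysf3Δi and 43.7 and 54.4 CPM in the wild type at 48 h. Log-phase values of UTP8 were 252 and 219.6 CPM in mms2Δi, 223 and 212 CPM in ysf3Δi and 225 and 188 CPM in the wild type. Its 48 h libraries also lay far below those of log phase, with log2 fold changes of -1.93 ± 0.15 in mms2Δi, -2.01 ± 0.15 in ysf3Δi and -2.06 ± 0.15 in the wild type. UTP10 (YJL109C) had the smallest decrease of the complex in each genotype. It encodes the large helical-repeat protein of UtpA and had 308 and 327 CPM in mms2Δi, 283 and 252 CPM in ysf3Δi and 182 and 249.2 CPM in the wild type at 48 h. Log-phase values of UTP10 were 588 and 629.6 CPM in mms2Δi, 474 and 593 CPM in ysf3Δi and 429 and 293 CPM in the wild type. The wild-type groups lay close together, with 1 log-phase library at 293 CPM and 1 48 h library at 249.2 CPM, and the log2 fold changes were -0.94 ± 0.21 in mms2Δi, -0.997 ± 0.21 in ysf3Δi and -0.74 ± 0.21 in the wild type. Without wild-type strain 1 the call was lost and the wild-type value was -0.26, with 1 wild-type library left in each phase. Such a loss cannot tell a difference of that strain from the loss of replication. The other UtpA genes, UTP5 (YDR398W), UTP9 (YHR196W), UTP15 (YMR093W) and NAN1 (YPL126W), had log2 fold changes of -1.51, -2.11, -1.66 and -1.38 in the wild type.

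All 6 UtpB genes fell in each genotype, with a median log2 fold change of -1.60 in mms2Δi and -1.74 in the wild type. UTP13 (YLR222C), a WD40-repeat subunit, had 133 and 149 CPM in mms2Δi, 123 and 112 CPM in ysf3Δi and 111 and 127 CPM in the wild type at 48 h. Log-phase values of UTP13 were 535 and 517 CPM in mms2Δi, 463 and 416 CPM in ysf3Δi and 559 and 592 CPM in the wild type. The highest 48 h library had 149 CPM and the lowest log-phase library 416 CPM, and the log2 fold changes were -1.90 ± 0.13 in mms2Δi, -1.90 ± 0.13 in ysf3Δi and -2.28 ± 0.14 in the wild type. DIP2 (YLR129W), the UtpB gene with the highest mean CPM, had 221 and 167 CPM in mms2Δi, 205 and 199 CPM in ysf3Δi and 225 and 213 CPM in the wild type at 48 h. Log-phase values of DIP2 were 493 and 437 CPM in mms2Δi, 369 and 514 CPM in ysf3Δi and 547 and 622 CPM in the wild type. The 48 h and log-phase groups did not overlap in any genotype, and its log2 fold changes of -1.26 ± 0.19 in mms2Δi, -1.13 ± 0.19 in ysf3Δi and -1.42 ± 0.19 in the wild type were smaller than those of UTP13. PWP2 (YCR057C), UTP6 (YDR449C), UTP18 (YJL069C) and UTP21 (YLR409C) had values between -2.10 and -1.37 in the wild type.

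In the Mpp10 complex, whose Imp3 and Imp4 proteins help U3 pair with the precursor, the 3 genes changed to different extents. MPP10 (YJR002W) had 258 and 168 CPM in mms2Δi, 258 and 249.7 CPM in ysf3Δi and 346 and 279.5 CPM in the wild type at 48 h. Log-phase values of MPP10 were 385 and 323 CPM in mms2Δi, 237 and 394 CPM in ysf3Δi and 497 and 599 CPM in the wild type. In ysf3Δi the groups overlapped and the gene did not pass, with an adjusted p of 0.301 by edgeR, while the log2 fold changes were -0.74 ± 0.26 in mms2Δi, -0.31 ± 0.26 in ysf3Δi and -0.81 ± 0.26 in the wild type. The MPP10 call in mms2Δi was lost without mms2Δi strain 1 in log phase (adjusted p = 0.124) or strain 2 at 48 h (adjusted p = 0.199). In ysf3Δi the MPP10 value was -0.64 (adjusted p = 0.0455) without strain 1 in log phase and 0.018 (adjusted p = 0.958) without strain 2 in log phase. The call in the wild type was lost without wild-type strain 2 in log phase (adjusted p = 0.0774) or at 48 h (adjusted p = 0.108). IMP3 (YHR148W) had 8.88 and 9.50 CPM in mms2Δi, 7.98 and 7.97 CPM in ysf3Δi and 5.29 and 7.36 CPM in the wild type at 48 h. Log-phase values of IMP3 were 31.5 and 35.6 CPM in mms2Δi, 26.8 and 23.6 CPM in ysf3Δi and 22.6 and 12.8 CPM in the wild type. Its groups were separate in each genotype, and its log2 fold changes were -1.86 ± 0.27 in mms2Δi, -1.66 ± 0.26 in ysf3Δi and -1.44 ± 0.27 in the wild type. IMP4 (YNL075W) had log2 fold changes of -1.32 in mms2Δi, -0.97 in ysf3Δi and -1.38 in the wild type.

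Nop14 and Noc4 bind each other, and in the edgeR fit of all 12 libraries NOP14 (YDL148C) passed in each genotype whereas NOC4 did not. NOP14 had 262 and 194 CPM in mms2Δi, 263 and 244 CPM in ysf3Δi and 350.3 and 310.1 CPM in the wild type at 48 h. Log-phase values of NOP14 were 526 and 403 CPM in mms2Δi, 399.9 and 512 CPM in ysf3Δi and 670.3 and 792 CPM in the wild type. Its log2 fold changes were -1.03 ± 0.20 in mms2Δi, -0.85 ± 0.20 in ysf3Δi and -1.15 ± 0.20 in the wild type, with no overlap between phases in any genotype. NOC4 (YPR144C) had 65.3 and 66.1 CPM in mms2Δi, 57.5 and 63.9 CPM in ysf3Δi and 28.5 and 47.3 CPM in the wild type at 48 h. Log-phase values of NOC4 were 97.1 and 91.5 CPM in mms2Δi, 69.5 and 99.0 CPM in ysf3Δi and 62.0 and 43.0 CPM in the wild type. In the wild type the 2 phases overlapped, and the log2 fold changes of -0.52 ± 0.25 in mms2Δi, -0.47 ± 0.25 in ysf3Δi and -0.45 ± 0.25 in the wild type did not pass in any genotype, with adjusted p-values of 0.0887 in mms2Δi, 0.115 in ysf3Δi and 0.137 in the wild type by edgeR. NOC4 was lower at 48 h by DESeq2 in mms2Δi, where its adjusted p was 0.0483 and its phases did not overlap. By edgeR it also passed in mms2Δi with only the compared libraries fitted (adjusted p = 0.00965) and without the filter on low counts (adjusted p = 0.0392). In mms2Δi the different outcome for NOP14 and NOC4 therefore depends on the fit. Leaving out a library brought NOC4 under the threshold in some fits, with adjusted p-values of 0.0361 in the wild type without strain 2 in log phase and 0.0183 without strain 2 at 48 h. Without wild-type strain 1 the wild-type value of NOC4 was 0.11 (adjusted p = 0.706). RRP9 (YPR137W), which encodes the U3-specific protein of the U3 particle, had 97.1 and 89.9 CPM in mms2Δi, 85.0 and 84.4 CPM in ysf3Δi and 102 and 89.5 CPM in the wild type at 48 h. Log-phase values of RRP9 were 329.8 and 265 CPM in mms2Δi, 299.8 and 284 CPM in ysf3Δi and 374 and 445 CPM in the wild type. Every 48 h library was below every log-phase library, and the log2 fold changes were -1.67 ± 0.15 in mms2Δi, -1.78 ± 0.15 in ysf3Δi and -2.10 ± 0.15 in the wild type.

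Among the 7 enzymes and enzyme-like factors, 6 fell in each genotype. DBP8 (YHR169W), a DEAD-box helicase gene, had 34.0 and 43.1 CPM in mms2Δi, 35.3 and 37.8 CPM in ysf3Δi and 35.0 and 38.6 CPM in the wild type at 48 h. Log-phase values of DBP8 were 133 and 121.1 CPM in mms2Δi, 108 and 105 CPM in ysf3Δi and 169 and 203 CPM in the wild type. Its groups were far apart, with log2 fold changes of -1.71 ± 0.15 in mms2Δi, -1.54 ± 0.15 in ysf3Δi and -2.33 ± 0.16 in the wild type. KRE33 (YNL132W), whose product acetylates 18S rRNA, had 118 and 129 CPM in mms2Δi, 117 and 105 CPM in ysf3Δi and 99.4 and 108 CPM in the wild type at 48 h. Log-phase values of KRE33 were 475 and 482 CPM in mms2Δi, 291 and 497 CPM in ysf3Δi and 418 and 337 CPM in the wild type. Log-phase values of KRE33 were uneven in ysf3Δi but still above the 48 h values, and its log2 fold changes were -1.96 ± 0.22 in mms2Δi, -1.83 ± 0.22 in ysf3Δi and -1.86 ± 0.22 in the wild type. BMS1 (YPL217C), the gene of the processome GTPase, was the exception. It had 387 and 175 CPM in mms2Δi, 371 and 335 CPM in ysf3Δi and 496 and 403 CPM in the wild type at 48 h. Log-phase values of BMS1 were 525 and 419 CPM in mms2Δi, 313 and 759 CPM in ysf3Δi and 659 and 819 CPM in the wild type. The strains of 1 genotype differed more for BMS1 than the phases did in ysf3Δi, where the groups overlapped, and the log2 fold changes of -0.75 ± 0.41 in mms2Δi, -0.60 ± 0.41 in ysf3Δi and -0.72 ± 0.41 in the wild type had adjusted p-values of 0.127 in mms2Δi, 0.212 in ysf3Δi and 0.139 in the wild type by edgeR. Single libraries moved BMS1, to -1.43 (adjusted p = 0.0198) without strain 1 and -0.29 (adjusted p = 0.575) without strain 2 of mms2Δi at 48 h, and to -1.11 (adjusted p = 0.0223) without strain 1 and 0.092 (adjusted p = 0.853) without strain 2 of ysf3Δi in log phase. In mms2Δi it also passed without ysf3Δi strain 2 in log phase (adjusted p = 0.0447), and in the wild type when only the compared libraries were fitted (adjusted p = 0.0103). RCL1 (YOL010W), which encodes the cyclase-like partner of Bms1, had 77.2 and 71.6 CPM in mms2Δi, 72.6 and 76.5 CPM in ysf3Δi and 87.2 and 71.2 CPM in the wild type at 48 h. Log-phase values of RCL1 were 124 and 106 CPM in mms2Δi, 125 and 117 CPM in ysf3Δi and 142 and 202 CPM in the wild type. The phases did not overlap, and the log2 fold changes were -0.63 ± 0.18 in mms2Δi, -0.70 ± 0.18 in ysf3Δi and -1.12 ± 0.18 in the wild type. In mms2Δi the RCL1 call was lost without strain 1 in log phase (adjusted p = 0.0655) or strain 2 at 48 h (adjusted p = 0.0573). ECM16 (YMR128W), which encodes the Dhr1 helicase that frees U3 from the precursor, had log2 fold changes of -0.84 in mms2Δi, -0.80 in ysf3Δi and -1.07 in the wild type, and the helicase genes DHR2 (YKL078W) and ROK1 (YGL171W) had log2 fold changes of -1.17 and -1.81 in the wild type.

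The 8 remaining Utp genes all fell in each genotype. UTP23 (YOR004W), which encodes a PIN-domain protein, had 19.3 and 25.6 CPM in mms2Δi, 20.4 and 22.5 CPM in ysf3Δi and 24.95 and 23.7 CPM in the wild type at 48 h. Log-phase values of UTP23 were 105 and 82.7 CPM in mms2Δi, 73.5 and 87.2 CPM in ysf3Δi and 139.9 and 139 CPM in the wild type. The wild type had the highest log-phase values and the largest decrease of the 41 genes, and the log2 fold changes were -2.04 ± 0.18 in mms2Δi, -1.90 ± 0.18 in ysf3Δi and -2.52 ± 0.18 in the wild type. UTP20 (YBL004W), which encodes a very large helical-repeat protein, had 688 and 720.3 CPM in mms2Δi, 653 and 573 CPM in ysf3Δi and 612 and 671 CPM in the wild type at 48 h. Log-phase values of UTP20 were 1507 and 1350.1 CPM in mms2Δi, 1305 and 1399 CPM in ysf3Δi and 1673 and 1619 CPM in the wild type. Its phases were separate in each genotype, and its log2 fold changes were -1.02 ± 0.15 in mms2Δi, -1.14 ± 0.15 in ysf3Δi and -1.36 ± 0.15 in the wild type. UTP7 (YER082C), UTP11 (YKL099C), UTP14 (YML093W), UTP22 (YGR090W), UTP25 (YIL091C) and UTP30 (YKR060W) had log2 fold changes from -1.79 to -1.13 in the wild type.

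All 7 other assembly factors fell in each genotype. RRP5 (YMR229C) had 636 and 598 CPM in mms2Δi, 619.6 and 525 CPM in ysf3Δi and 589 and 616 CPM in the wild type at 48 h. Log-phase values of RRP5 were 2228 and 2029 CPM in mms2Δi, 2030.3 and 2125 CPM in ysf3Δi and 2489.7 and 2723 CPM in the wild type. Every genotype showed a similar gap, with log2 fold changes of -1.79 ± 0.16 in mms2Δi, -1.86 ± 0.16 in ysf3Δi and -2.11 ± 0.16 in the wild type. ENP2 (YGR145W) had 218 and 174 CPM in mms2Δi, 225 and 229 CPM in ysf3Δi and 295 and 259.6 CPM in the wild type at 48 h. Log-phase values of ENP2 were 385 and 330.3 CPM in mms2Δi, 266 and 355 CPM in ysf3Δi and 538 and 605 CPM in the wild type. Its phases did not overlap, but the ysf3Δi groups were close, and the log2 fold changes were -0.87 ± 0.17 in mms2Δi, -0.45 ± 0.17 in ysf3Δi and -1.05 ± 0.17 in the wild type. In ysf3Δi the ENP2 call was lost with the strain as a block (adjusted p = 0.0527), with library totals as scaling (adjusted p = 0.106) and without log-phase strain 2 or either 48 h library (adjusted p = 0.115 to 0.176). BFR2 (YDR299W), whose product binds Enp2, had 70.7 and 59.1 CPM in mms2Δi, 68.1 and 73.4 CPM in ysf3Δi and 80.3 and 84.6 CPM in the wild type at 48 h. Log-phase values of BFR2 were 116 and 97.8 CPM in mms2Δi, 87.5 and 131 CPM in ysf3Δi and 132 and 173 CPM in the wild type. Its phases were separate, and its log2 fold changes were -0.72 ± 0.21 in mms2Δi, -0.63 ± 0.20 in ysf3Δi and -0.88 ± 0.20 in the wild type. The BFR2 call in mms2Δi was lost without strain 1 in log phase (adjusted p = 0.063) or strain 2 at 48 h (adjusted p = 0.0759). KRR1 (YCL059C), SOF1 (YLL011W), ENP1 (YBR247C) and LCP5 (YER127W) had log2 fold changes of -2.11, -1.71, -2.11 and -1.32 in the wild type. Enp1 is a factor that stays with the pre-40S particle into the cytoplasm.

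**Figure D2:**
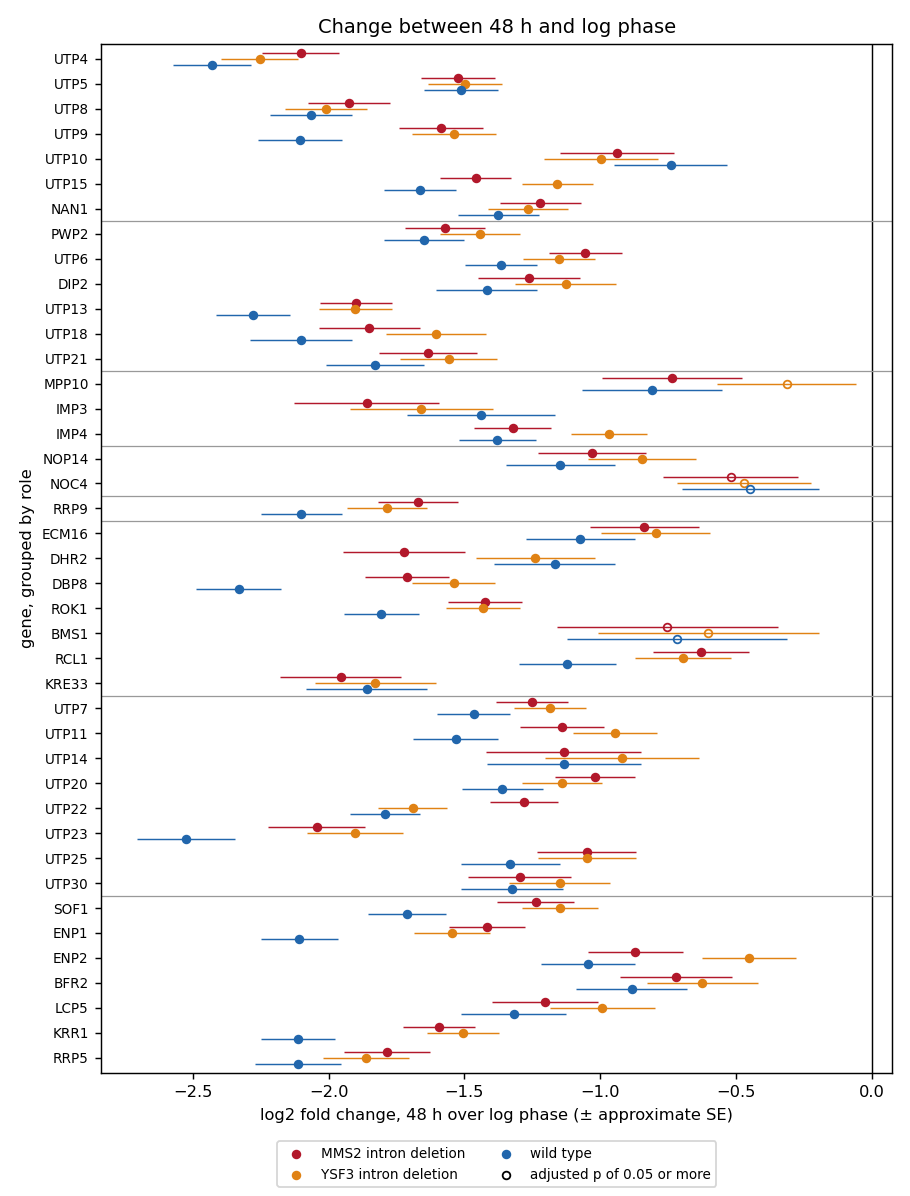
Log2 fold change of 48 h over log phase for each of the 41 genes (rows, grouped by role) in mms2Δi, ysf3Δi and the wild type, with bars of 1 approximate standard error and open points for an adjusted p of 0.05 or more. All points lie below 0, and the open points are NOC4 and BMS1 in each genotype and MPP10 in ysf3Δi.

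The 3 phase comparisons share no library, so their log2 fold changes can be set side by side. Over the 41 genes Pearson's r of the log2 fold changes was 0.926 between mms2Δi and ysf3Δi (Spearman's rho 0.921), 0.861 between mms2Δi and the wild type (rho 0.854) and 0.889 between ysf3Δi and the wild type (rho 0.885). These are correlations across genes, which are not independent replicates.

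Whether the phase change differed by genotype was tested as a difference of 2 log2 fold changes. No gene of the 41 passed for either deletion by edgeR, and neither did any of the 6068 genes (0%), while 6 of the 41 in mms2Δi and 9 in ysf3Δi had an unadjusted p under 0.05. DESeq2 called none of the 41 for either deletion. The estimate was positive, which is a smaller decrease in the deletion, for 33 genes in mms2Δi and 37 in ysf3Δi, with medians of 0.20 in mms2Δi and 0.28 in ysf3Δi. Over all tested genes the medians were 0.09 in mms2Δi and 0.04 in ysf3Δi. The shares of all tested genes with a positive estimate or an unadjusted p under 0.05 are not given here. The counts of both kinds among the 41 therefore have no background. ENP1 had the smallest p in mms2Δi, with a difference of 0.69 (95% interval 0.26 to 1.12, adjusted p = 0.502). DBP8 had the smallest in ysf3Δi, with a difference of 0.79 (95% interval 0.32 to 1.26, adjusted p = 0.905). Without wild-type strain 1 none passed either, with 10 of the 41 in mms2Δi and 11 in ysf3Δi at an unadjusted p under 0.05. The wild-type libraries enter both differences.

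In log phase the comparison with the wild type asks what the intron deletions do during growth. Fewer processome genes changed, and by less than between phases. In mms2Δi 13 of the 41 fell (13.3% of all tested genes) and 4 rose (13.9%), and in ysf3Δi 19 fell (13.5%) and none rose (13.7%), by edgeR at an adjusted p under 0.05. The 41 genes had a median log2 fold change of -0.39 in mms2Δi and -0.48 in ysf3Δi, against -0.01 over all tested genes in each. Both deletion libraries lay below both wild-type libraries for 30 genes in mms2Δi (37.4% of all genes) and 33 in ysf3Δi (33.8%), and above them for 6 in mms2Δi (36.3%) and 4 in ysf3Δi (29.5%). A test against a fold of 2 (edgeR's glmTreat) called none of the 41 in either deletion (0% of all genes). Both comparisons use the same wild-type libraries, so agreement between them is not independent.

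ENP2 had the lowest estimate in both deletions. Its log-phase values were 385 and 330.3 CPM in mms2Δi and 266 and 355 CPM in ysf3Δi, against 538 and 605 CPM in the wild type. No deletion library reached the wild type, and the log2 fold change was -0.68 ± 0.17 in mms2Δi (adjusted p = 0.0212) and -0.88 ± 0.17 in ysf3Δi (adjusted p = 0.00792). LCP5, the gene of a factor that works with Enp2 and Bfr2, had 247 and 187 CPM in mms2Δi and 175 and 180.1 CPM in ysf3Δi, against 269 and 349 CPM in the wild type. Its wild-type libraries were the higher ones, and the log2 fold change of -0.80 ± 0.19 passed in ysf3Δi, whereas -0.51 ± 0.19 in mms2Δi had an adjusted p of 0.0661. KRR1, the gene of a KH-domain RNA-binding protein, had 206 and 173 CPM in mms2Δi and 176 and 184 CPM in ysf3Δi, against 283 and 287 CPM in the wild type. The groups were separate, and its log2 fold changes were -0.59 in mms2Δi and -0.66 in ysf3Δi.

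Helicase and Utp genes fell as well. ECM16 had 405 and 344 CPM in mms2Δi and 300.2 and 464 CPM in ysf3Δi, against 568 and 622 CPM in the wild type. Each deletion library was below both wild-type libraries, and the log2 fold change was -0.67 ± 0.20 in mms2Δi (adjusted p = 0.0333) and -0.64 ± 0.20 in ysf3Δi (adjusted p = 0.0369). The ECM16 call in mms2Δi was lost with the strain number as a block (adjusted p = 0.0506). DBP8 passed in both, with the values listed for log phase above and log2 fold changes of -0.55 ± 0.15 in mms2Δi and -0.80 ± 0.15 in ysf3Δi. UTP23 likewise passed in both, with -0.57 ± 0.17 in mms2Δi and -0.80 ± 0.17 in ysf3Δi. NOP14 passed in both, with -0.65 ± 0.20 in mms2Δi and -0.68 ± 0.20 in ysf3Δi, as did RRP9, with -0.46 ± 0.14 in mms2Δi and -0.49 ± 0.14 in ysf3Δi. Without wild-type strain 1, NOP14 and ECM16 lost both calls, and UTP23 lost that in mms2Δi. The estimates in that fit were -0.75 in mms2Δi and -0.78 in ysf3Δi for NOP14. They were -0.72 in mms2Δi and -0.70 in ysf3Δi for ECM16, and -0.55 in mms2Δi for UTP23. The RRP9 call in mms2Δi was lost with the strain number as a block (adjusted p = 0.05). With only the compared libraries in the edgeR fit RRP9 lost both calls (adjusted p = 0.0875 in mms2Δi and 0.141 in ysf3Δi). NOP14 lost that in ysf3Δi (0.0839). Leaving out single libraries also lost RRP9 calls in each deletion. The others that fell in mms2Δi were RCL1, ENP1, UTP9, SOF1, UTP7 and UTP6, with log2 fold changes from -0.58 to -0.43. In ysf3Δi the others that fell were SOF1, UTP9, ENP1, UTP7, UTP11, UTP6, UTP18, ROK1, IMP4, MPP10 and UTP13, with values from -0.80 to -0.39. The MPP10 call was lost with the strain number as a block (adjusted p = 0.0619 by edgeR) and with only the compared libraries fitted (0.0913). By group, 4 of the 7 other assembly factors fell in mms2Δi and 5 in ysf3Δi, 3 of the 7 enzymes in each, 2 of the 8 other Utp genes in mms2Δi and 3 in ysf3Δi, and 1 of the 6 UtpB genes in mms2Δi and 3 in ysf3Δi. Of the 7 UtpA genes 1 fell in each deletion, which was UTP9. Over all tested genes 13.3% fell in mms2Δi and 13.5% in ysf3Δi, so counts of 1 in a group lie near that share.

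IMP3, NOC4, DHR2 and UTP10 went the other way in mms2Δi, where they rose. IMP3 had 31.5 and 35.6 CPM in mms2Δi against 22.6 and 12.8 CPM in the wild type, with a log2 fold change of 0.92 ± 0.25. NOC4 had 97.1 and 91.5 CPM in mms2Δi against 62.0 and 43.0 CPM in the wild type, with 0.85 ± 0.25. DHR2 had 86.9 and 86.3 CPM in mms2Δi against 53.2 and 44.6 CPM in the wild type, with 0.82 ± 0.21. In all 3 the wild-type strains differed, strain 1 being the higher, and the groups did not overlap. UTP10 had 588 and 629.6 CPM in mms2Δi against 429 and 293 CPM in the wild type, with a log2 fold change of 0.75 ± 0.21 and the same order of the wild-type strains. In ysf3Δi these 4 had positive estimates that did not pass by edgeR, of 0.51 for IMP3 (adjusted p = 0.146), 0.68 for NOC4 (adjusted p = 0.062), 0.30 for DHR2 (adjusted p = 0.301) and 0.56 for UTP10 (adjusted p = 0.0649). DESeq2 called UTP10 and NOC4 higher in ysf3Δi, with adjusted p-values of 0.0291 and 0.0282. It also called genes lower that edgeR did not. These were UTP14 (adjusted p = 0.0377), UTP15 (0.0367) and RCL1 (0.0472) in ysf3Δi and UTP11 (0.0492) in mms2Δi.

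**Figure D3:**
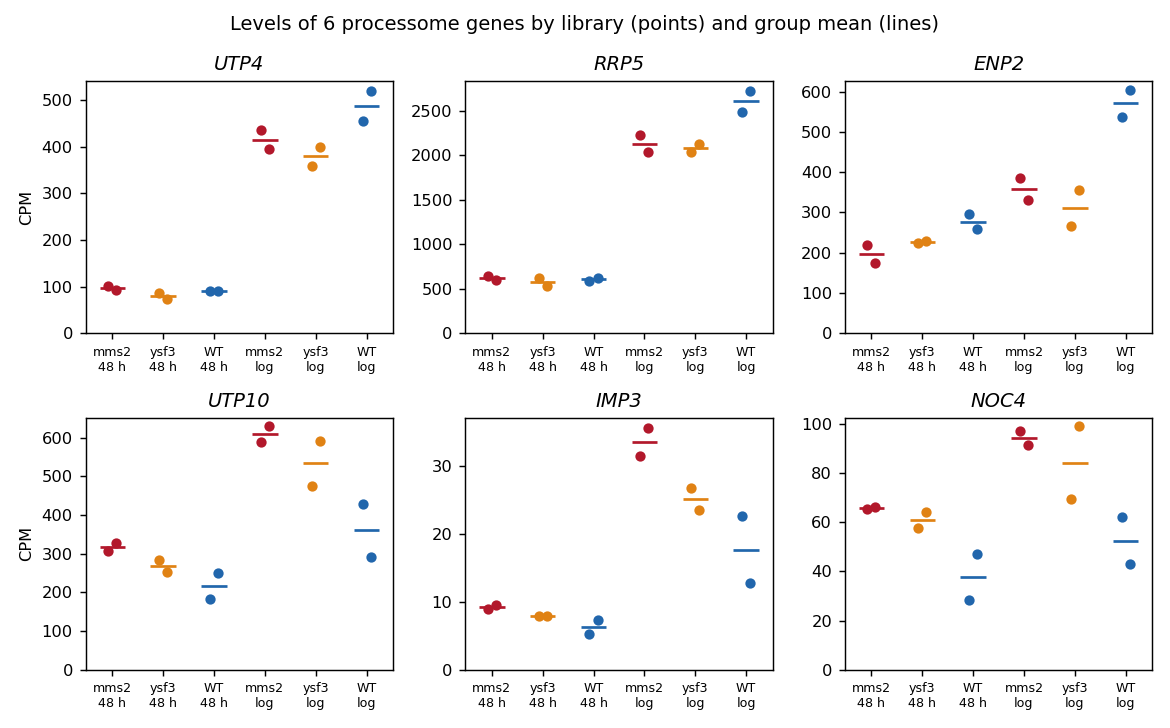
CPM of UTP4, RRP5, ENP2, UTP10, IMP3 and NOC4 in every library (points) with group means (lines), for 48 h on the left and log phase on the right of each panel. UTP4 and RRP5 divide by phase in every genotype, ENP2 is highest in wild-type log phase, and UTP10, IMP3 and NOC4 are higher in mms2Δi than in the wild type in log phase.

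The log-phase counts changed when single libraries were left out, which keeps 1 library in the group concerned. Without wild-type strain 2 in log phase none of the 41 passed in either deletion, with 6 genes of the whole table left in mms2Δi and 38 in ysf3Δi. Without mms2Δi strain 2 in log phase no gene of the table passed in mms2Δi, without strain 1 in log phase 9 of the 41 passed, and without either 48 h library of ysf3Δi 11 passed. Without both libraries of wild-type strain 1, the alpha-type strain, 8 fell and 4 rose in mms2Δi, and 14 fell and 3 rose in ysf3Δi, the 3 being IMP3, NOC4 and UTP10. Scaling by library totals moved the median of all genes to -0.15 in mms2Δi and -0.18 in ysf3Δi and gave 16 lower and 1 higher of the 41 in mms2Δi, and 27 lower and 0 higher in ysf3Δi. Of the 4 risers, DHR2, NOC4 and UTP10 lost their calls under that scaling, with adjusted p-values of 0.0523, 0.0651 and 0.0524. In ysf3Δi the log2 fold change and gene length had a Spearman's rho of 0.391 over the 41 genes, against -0.0198 over 5659 genes of the table with a length. In mms2Δi these were 0.187 and -0.0493, and with the trend in length removed from each library 18 of the 41 passed in mms2Δi and 20 in ysf3Δi. Apart from the fits with whole-table counts above, the shares of all tested genes called in these fits are not given here. The counts of the 41 in those fits therefore have no background.

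At 48 h the deletions were compared with the wild type in the same way, and no processome gene passed in either deletion by edgeR. Of all tested genes 2.09% were lower and 8.54% higher in mms2Δi, and 0.28% lower and 2.49% higher in ysf3Δi. At an unadjusted p under 0.05 there were 7 of the 41 in mms2Δi and 4 in ysf3Δi, and DESeq2 called 3 in mms2Δi and 0 in ysf3Δi. The shares of all tested genes with an unadjusted p under 0.05 or a DESeq2 call are not given here. Counts of both kinds among the 41 therefore have no background. The 3 called by DESeq2 were ENP2, lower with a DESeq2 log2 fold change of -0.53 ± 0.19 (SE), UTP22, higher with 0.38 ± 0.14, and NOC4, higher with 0.75 ± 0.26. NOC4 had 65.3 and 66.1 CPM in mms2Δi and 57.5 and 63.9 CPM in ysf3Δi, against 28.5 and 47.3 CPM in the wild type. All 4 deletion libraries were above both wild-type libraries, and the edgeR log2 fold changes were 0.77 ± 0.25 in mms2Δi (adjusted p = 0.0741) and 0.66 ± 0.25 in ysf3Δi (adjusted p = 0.179). ENP2 had 218 and 174 CPM in mms2Δi and 225 and 229 CPM in ysf3Δi, against 295 and 259.6 CPM in the wild type. All 4 deletion libraries were below both wild-type libraries, with log2 fold changes of -0.50 ± 0.17 in mms2Δi (adjusted p = 0.0851) and -0.29 ± 0.17 in ysf3Δi (adjusted p = 0.371) by edgeR. The median of the 41 genes was -0.05 in mms2Δi and -0.09 in ysf3Δi. The 95% intervals over the 41 genes reached from -1.58 for BMS1 to 1.34 for NOC4 in mms2Δi and from -1.24 to 1.22 in ysf3Δi. Without wild-type strain 1 no gene of the whole table passed at 48 h in either deletion by edgeR, and 0 of the 41 in mms2Δi and 1 in ysf3Δi had an unadjusted p under 0.05.

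**Figure D4:**
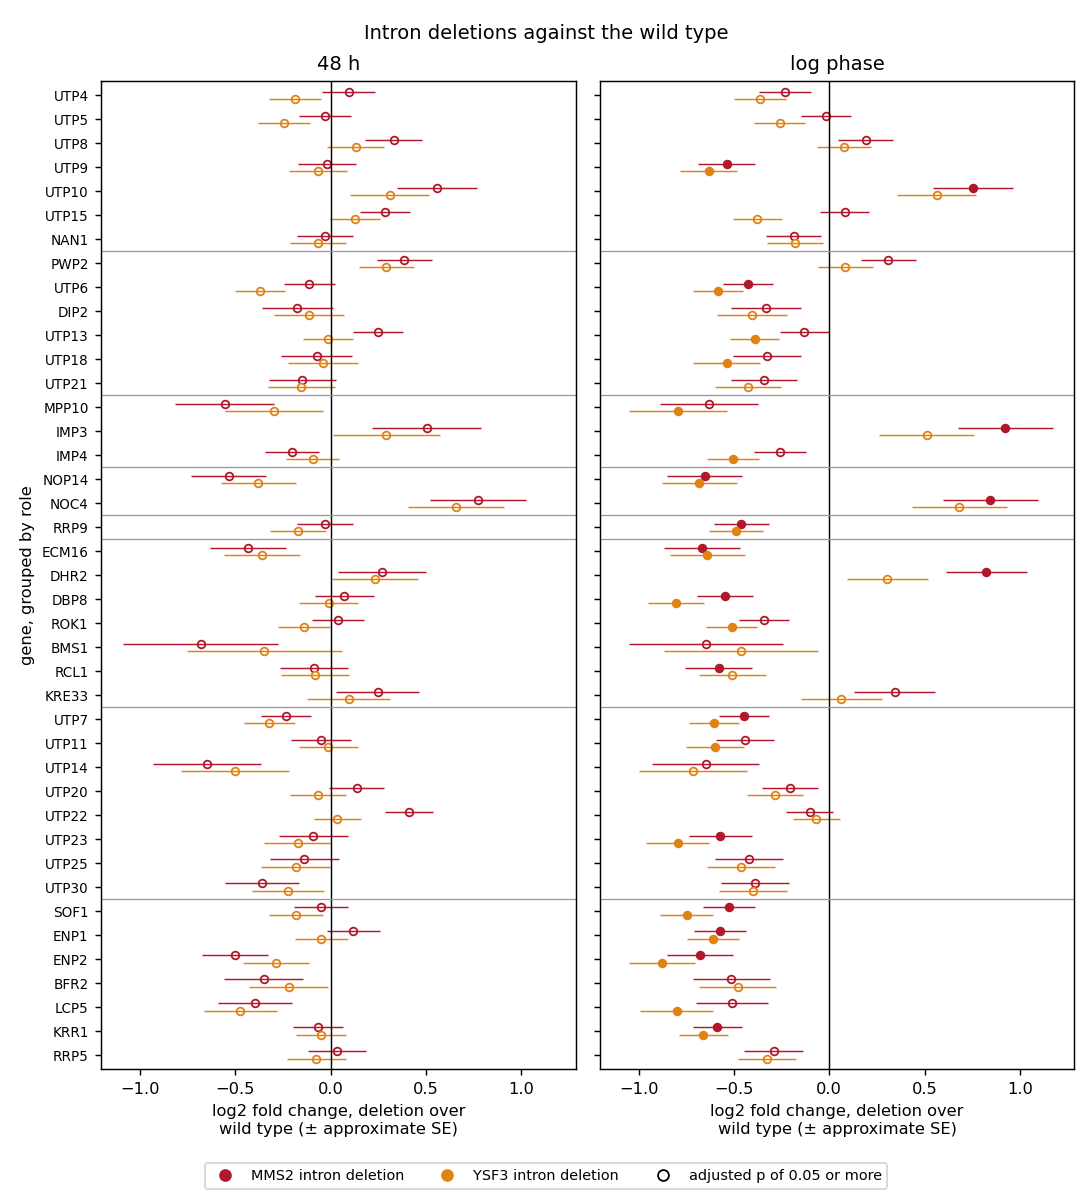
Log2 fold change of mms2Δi and ysf3Δi over the wild type for each of the 41 genes (rows, grouped by role), at 48 h (left) and in log phase (right), with bars of 1 approximate standard error and open points for an adjusted p of 0.05 or more. In log phase most points lie below 0 with IMP3, NOC4, DHR2 and UTP10 above it, and at 48 h every point is open.

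The deletions were also compared with each other, with mms2Δi over ysf3Δi. None of the 41 passed in log phase or at 48 h by edgeR or DESeq2 (0% of all genes in both phases by edgeR), and 2 in log phase and 1 at 48 h had an unadjusted p under 0.05. In log phase these were UTP15, with a log2 difference of 0.46 (95% interval 0.17 to 0.74, adjusted p = 0.999), and DHR2, with 0.52 (95% interval 0.05 to 0.99, adjusted p = 0.999). At 48 h it was UTP22, with 0.38 (95% interval 0.10 to 0.65, adjusted p = 0.733). The shares of all tested genes with an unadjusted p under 0.05 are not given here. The medians of the 41 genes were 0.15 in log phase and 0.08 at 48 h.

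Other genes of the same pathway were counted from lists of general yeast knowledge. Of 22 further processome and 90S genes, 18 fell at 48 h in mms2Δi (30.7% of all tested genes), 16 in ysf3Δi (32.9%) and 19 in the wild type (34.3%), and none rose. Those with the smallest adjusted p in the wild type were EMG1, the gene of a methyltransferase of 18S rRNA, with -2.85 ± 0.14, NOP9, with -2.34 ± 0.13, and NOP56, a core protein gene of box C/D particles, with -3.41 ± 0.20 on the log2 scale. Of 12 genes for later steps of 40S assembly 8 fell in mms2Δi, 7 in ysf3Δi and 9 in the wild type, and SQS1 rose in each genotype. The helicase gene PRP43, which had the smallest adjusted p of the 12 in the wild type, had log2 fold changes of -1.80 ± 0.12 in mms2Δi, -1.81 ± 0.12 in ysf3Δi and -2.14 ± 0.12 in the wild type. In log phase 8 of the 22 fell (13.3% of all tested genes) and 3 rose (13.9%) in mms2Δi, and 10 fell (13.5%) and 3 rose (13.7%) in ysf3Δi. The counts of 3 that rose lie near those shares. BUD21 and FCF2, which encode processome factors, had log2 fold changes of -0.74 and -0.76 in mms2Δi and -0.88 and -0.89 in ysf3Δi, whereas SNU13, a core protein gene of the U3 particle and of the U4/U6 splicing particle, rose by 1.51 in mms2Δi and 1.58 in ysf3Δi on the log2 scale. The others that rose in both were NOP1, the fibrillarin gene, and NSR1, the nucleolin-like gene. Of the 12 later genes NOB1, LTV1 and SQS1 fell in mms2Δi, and these 3 with RIO2, TSR1 and PRP43 fell in ysf3Δi. For the fits below that leave out a wild-type library, the shares of all tested genes are not given. At 48 h SNU13 and NSR1 were higher in mms2Δi than in the wild type, and no other gene of these lists passed in either deletion. Both 48 h calls were lost without wild-type strain 1, where the log2 fold change was 1.17 for SNU13, against 1.62 with it. For NSR1 it was 0.65, against 0.92 with that strain. Without that strain 17 of the 22 and 8 of the 12 fell between phases in the wild type, and SQS1 no longer passed there (adjusted p = 0.716). In log phase 5 of the 22 then fell and 3 rose in mms2Δi, and 9 fell and 3 rose in ysf3Δi, with 2 of the 12 lower in mms2Δi and 4 in ysf3Δi. Without wild-type strain 2 in log phase none of the 22 or of the 12 passed in log phase by edgeR, while 8 of the 22 in mms2Δi and 13 in ysf3Δi, and 1 of the 12 in mms2Δi and 6 in ysf3Δi, had an unadjusted p under 0.05.

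The RNA partner of these proteins, U3, comes from the near-identical genes snR17a and snR17b, whose reads may have been divided between them, so each value is uncertain. SNR17A had 12645 and 23215 CPM in mms2Δi, 17266 and 15270.5 CPM in ysf3Δi and 2666 and 4792 CPM in the wild type at 48 h. In log phase it had 3516 and 4101 CPM in mms2Δi, 6917 and 5893 CPM in ysf3Δi and 1675 and 1099 CPM in the wild type. Both deletions lay above the wild type in each phase, which is the opposite of the median of the protein genes in log phase. At 48 h its log2 fold change over the wild type was 2.27 ± 0.37 in mms2Δi and 2.12 ± 0.36 in ysf3Δi, and in log phase 1.46 ± 0.36 in mms2Δi and 2.21 ± 0.37 in ysf3Δi. All 4 passed, as did those of SNR17B, which were 2.58 in mms2Δi and 2.25 in ysf3Δi at 48 h and 2.33 in mms2Δi and 2.98 in ysf3Δi in log phase. Several of these calls were lost in fits that left 1 library in a group, although the estimates stayed positive. At 48 h without wild-type strain 1, SNR17A had 1.87 in mms2Δi and 1.77 in ysf3Δi, and SNR17B had 2.11 and 1.815. Without mms2Δi strain 2 at 48 h the mms2Δi values were 1.76 for SNR17A and 1.87 for SNR17B. In ysf3Δi the values were 2.03 and 2.29 without strain 1 at 48 h, and 2.21 and 2.205 without strain 2. The 48 h calls in ysf3Δi were also lost with the strain number as a block (adjusted p = 0.0544) and without mms2Δi strain 2 in log phase (adjusted p = 0.0501). The log-phase calls were lost without wild-type strain 2 in log phase, with 1.18 in mms2Δi and 1.94 in ysf3Δi for SNR17A. For SNR17B the values were then 2.04 in mms2Δi and 2.69 in ysf3Δi. Those in mms2Δi were also lost without mms2Δi strain 2 in log phase, with 1.34 for SNR17A and 2.00 for SNR17B. Between phases SNR17A was higher at 48 h in each genotype, by 2.24 in mms2Δi, 1.34 in ysf3Δi and 1.43 in the wild type on the log2 scale. SNR17B had 1.06 ± 0.42 in mms2Δi (adjusted p = 0.0435), 0.09 ± 0.41 in ysf3Δi (adjusted p = 0.864) and 0.82 ± 0.42 in the wild type (adjusted p = 0.104). Its call in mms2Δi was lost in 8 of 12 fits that left out 1 library, with the highest adjusted p of 0.487 without mms2Δi strain 2 at 48 h, and in the wild type it passed without strain 1 (1.59, adjusted p = 0.0253).

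Regulators of the regulon moved less uniformly. Of the 5 regulator genes, 2 rose and 1 fell at 48 h in mms2Δi, 3 rose and 1 fell in ysf3Δi, and 4 rose and 1 fell in the wild type. Of all tested genes 33.4% rose and 30.7% fell in mms2Δi, and 33.9% rose and 32.9% fell in ysf3Δi. In the wild type 32.8% rose and 34.3% fell. TOD6, which encodes a repressor that binds PAC, had log2 fold changes of -0.95 in mms2Δi, -1.04 in ysf3Δi and -1.21 in the wild type. STB3, which encodes a protein that binds RRPE, rose by 1.06 in mms2Δi, 1.21 in ysf3Δi and 1.55 in the wild type. SFP1, which encodes an activator of ribosome genes, rose by 0.71 in mms2Δi, 0.88 in ysf3Δi and 1.09 in the wild type on the log2 scale. DOT6, a paralog of TOD6, rose in ysf3Δi and the wild type, and the kinase gene SCH9 rose by 0.93 in the wild type. The SCH9 call was lost without wild-type strain 1, where its estimate was 1.01. None of the 5 passed against the wild type in log phase or at 48 h by edgeR, with 1 in mms2Δi and 2 in ysf3Δi at an unadjusted p under 0.05 in log phase and none in either at 48 h. The shares of all tested genes at that unadjusted p are not given here.

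The median decrease was not larger in genes with more full motifs in their promoters. In the wild type the median log2 fold change was -1.33 for the 11 genes with both motifs, -1.45 for the 14 with PAC alone, -1.71 for the 7 with RRPE alone and -1.79 for the 9 with neither. UTP23, with the largest decrease, and ENP2 both belong to the 9 with neither. Neither here means no full motif, since all of the 9 except UTP22 held the shorter core GATGAG. The window of UTP23 held both shorter cores. The classes therefore do not set genes with motif letters against genes without them. The ranges of the classes overlapped, from -2.43 to -0.72 with both motifs and from -2.52 to -1.05 with neither. In mms2Δi the 4 medians were -1.20, -1.29, -1.46 and -1.42, and in ysf3Δi -1.05, -1.22, -1.16 and -1.55, in the same order of classes. These classes were not tested against each other.

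**Figure D5:**
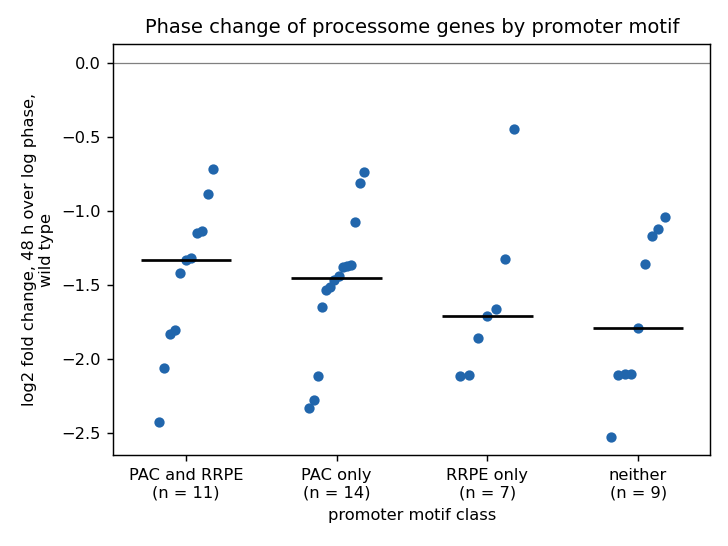
Log2 fold change of 48 h over log phase in the wild type for each of the 41 genes (points), by the full motifs found in its promoter window, with the median of each class (lines). The medians are -1.33, -1.45, -1.71 and -1.79 from both motifs to neither, and the classes overlap.

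The authors' deposited tables of called genes listed 37 of the 41 for the phases of mms2Δi, 34 for ysf3Δi and 38 for the wild type, all with a negative log2 fold change. For mms2Δi over wild type in growing cells the authors' deposited table listed 3, ENP2 and ECM16 with negative values and DHR2 with a positive one. The authors' deposited tables for ysf3Δi over wild type in growing cells, for both deletions at 48 h and for mms2Δi against ysf3Δi at 48 h listed none of the 41. The names of these deposited tables give an adjusted p of 0.001, whereas a call here is an adjusted p under 0.05. Because the thresholds differ, fewer genes in the authors' tables than called at an adjusted p under 0.05 do not show a disagreement. At an adjusted p under 0.001 edgeR called none of the 41 in mms2Δi in log phase, where the authors' table lists 3. At that threshold the authors' table therefore holds more of the 41 than were called here.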

How the data were processed

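The labels describe ribosome-depleted total RNA, ScriptSeq version 2 libraries and 12 samples in 6 groups of 2. The authors deposited a table of raw counts per gene, and the submitters' processing notes name Bowtie2, HTSeq, DESeq2 and sacCer3 without versions. Whether counting used strand is not given in the sources used here. The FPKM values deposited by the authors equalled library-scaled counts per kb of RefSeq gene length for the 41 genes and served for levels. The authors' deposited tables of called genes hold log2 fold changes and p-values per the file headers, and were used only for counts of members listed.

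Genes were filtered by filterByExpr, scaled by TMM (the CPM printed are so scaled) and tested by edgeR 4.0.16 (limma 3.58.1, R 4.3.3) with the quasi-likelihood method over all 12 libraries and 6 group means, with Benjamini-Hochberg adjustment over 6068 genes. A call is an adjusted p under 0.05. The table held 7126 genes, of which 562 had no count. The common dispersion was 0.0279 with 6 residual degrees of freedom. Dividing each absolute log2 fold change by the root of its F statistic gave the approximate standard error. Alternatives used DESeq2 1.42.0, other scalings and filters, left-out libraries and replicate blocks. The scripts were tested on simulated counts. Promoters were read from RefSeq R64, whose sequence is sacCer3, and all 41 genes matched by locus tag. One promoter sequence that met the rule for printing is not reported here. Annotation and plots used matplotlib 3.10.9, pandas 2.3.3 and Python 3.11.15, and copies were looked for with BLAST+ 2.17.0. Near-identical means at least 95% identity over at least 50% of the length.

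The 41 genes, the lists and the rule for naming genes were chosen with earlier results of these data known. All 41 could be named. Values per library are given for the 4 lowest and 3 highest estimates in each phase comparison, for up to 4 called genes in each direction between genotypes and for the gene of the highest mean CPM in each role group. The same strain was sampled in both phases, per the labels, so strain numbers pair the phases, although deviations of the same strain from the 2 group means correlated at -0.164 in the wild type, 0.0605 in mms2Δi and 0.0374 in ysf3Δi over 6068 genes.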

Additional observations from a re-analysis of the deposited data

How the results depend on the processing

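The phase counts of 39 in mms2Δi, 38 in ysf3Δi and 39 in the wild type changed by less than 1.5 times under every alternative except the test against a fold of 2, which called 22 in mms2Δi and 19 in ysf3Δi. The log-phase counts of 17 in mms2Δi and 19 in ysf3Δi fell to 0 in both deletions under that test and at an adjusted p under 0.001. With only the libraries compared in the fit, 4 of the 41 passed in ysf3Δi against the wild type in log phase and 2 at 48 h. DESeq2 called 3 at 48 h in mms2Δi. Leaving out 1 library gave 0 to 20 in mms2Δi and 0 to 18 in ysf3Δi in log phase and 0 to 1 in mms2Δi at 48 h. With the strain or strain number as a replicate block the counts were 39 in mms2Δi, 37 in ysf3Δi and 39 in the wild type between phases, 13 in mms2Δi and 15 in ysf3Δi in log phase, and 0 in the others. Library totals moved the median of the 41 to -0.53 in mms2Δi and -0.63 in ysf3Δi in log phase and the median of all genes at 48 h in mms2Δi to -0.12. Removing the trend of the log ratio with gene length, an alternative chosen after seeing the data, gave 40 in mms2Δi, 38 in ysf3Δi and 40 in the wild type between phases. The counts of the 41 in this paragraph are given without the share of all tested genes called in the same fit. The 2 shallowest libraries, both of 48 h, held 4871513 and 5051438 counts, and with 2 strains a group small differences at 48 h were not detectable.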

Other observations

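Among the other tested genes, promoters with both full motifs went with lower expression at 48 h as a group, without a test. In the wild type the 53 genes outside the 41 with PAC and RRPE had a median log2 fold change of -1.33, the 157 with PAC alone -0.69, the 163 with RRPE alone -1.24 and the 5217 with neither 0.04. Of the 53, 42 had a negative estimate in the wild type, 43 in mms2Δi and 43 in ysf3Δi. In log phase the 53 had a median of -0.30 in mms2Δi and -0.40 in ysf3Δi against the wild type, whereas the 163 with RRPE alone had 0.08 in mms2Δi and -0.02 in ysf3Δi. What these genes encode was not examined.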
